A study of Mus musculus with 8 samples.

Results

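The genes described here are the giant cadherins Fat1, Fat2, Fat3 and Fat4 and the giant scaffold proteins Ahnak and Ahnak2. The peaks described are all those that carry one of these 6 gene names in the lists of m6A peaks of mouse gastrocnemius, a calf muscle. Peaks bore the names of 3 of the 6 genes, Ahnak, Fat4 and Fat1, and of 5987 gene names in all. There were 54 and 50 such peaks in innervated replicates 1 and 2, out of 9327 and 10300, and 56 and 41 in denervated replicates 1 and 2, out of 9804 and 9496. Overlapping peaks of one strand, by 1 base or more, were linked into regions, of which 51 belonged to these genes and 13116 to the whole series. The genes were chosen by their peak calls, since Fat4 and Ahnak had been seen to hold many regions called in all 4 lists, so counts of shared regions are a description and were not tested.

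The study asked how denervation changes the RNA that carries N6-methyladenosine (m6A). All mice were male C57BL/6 animals of 10 weeks, and no transgene or deletion is named. The denervated group was gastrocnemius taken 14 days after denervation, and the innervated group, called untreated in the sample labels, was gastrocnemius of the opposite leg. Each group had 2 replicates, each with a library captured by an m6A antibody and an input library, from which the authors made 1 peak list per replicate. The labels do not say whether the replicates are separate animals or whether muscles were pooled, so a p-value over libraries covers no more than the spread of these libraries, and part of that spread may be technical.

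Fat cadherins are very large cell-surface proteins with long rows of cadherin repeats. Fat4 binds Dachsous cadherins on neighbouring cells, and Fat signalling is known for planar cell polarity and, in flies, for control of growth through the Hippo pathway. Fat1 is known to shape migrating myoblasts and face muscles in the mouse. Ahnak lies under the plasma membrane, binds S100A10 and annexin A2, takes part with dysferlin in membrane repair and binds calcium channel subunits. m6A is written on nascent RNA at short motifs with a central adenosine followed by cytosine, often inside long exons and near stop codons.

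Peaks of Fat4 and Fat1 began close to the transcript start taken from the promoter table. That start was 38886940 for Fat4 and 44950208 for Fat1. Both lie inside the gene spans, which begin at 38884667 and 44933100. Distances given for these genes are from that start, which may not be the 5′ end of the RNA in muscle. The first ATG lies at base 21 from that start in Fat4 and at base 7 in Fat1. Whether these are the start codons was not analysed here. The first 50 bases after that start are shown because they are the letters at hand that lie nearest to those peaks. They are printed 5′ to 3′ on the plus strand from RefSeq, build GRCm38.p6, the assembly of mm10. Capitals mark matches to 8 motifs searched on the transcript strand only, and the percentages are the share of all such windows that hold each motif. The motifs were GGACT (5.76%), AGACT (5.14%), GGACA (5.40%), GGACC (5.13%), AGACA (6.23%), AGACC (4.59%), TGACT (4.62%) and GAACT (4.40%). The Fat4 stretch is chr3:38886940-38886989 and the Fat1 stretch is chr8:44950208-44950257.
Fat4: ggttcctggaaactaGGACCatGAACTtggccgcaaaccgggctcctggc
Fat1: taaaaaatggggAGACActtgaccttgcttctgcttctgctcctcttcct
The first Fat4 peak, in denervated replicate 1, began at the base after this stretch, and the first Fat1 peak, also in denervated replicate 1, began 51 bases after it. The matches in each stretch do not overlap. At least 1 of the 8 motifs was found in 34.7% of the 32851 windows of this length in the promoter table, so a match is common, and it marks no methylated base. The sequence under the peaks was not analysed here.

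Read counts were not analysed here, so depth and transcript levels are unknown. A peak call depends on the abundance of a transcript and on depth as well as on methylation, and a missing peak does not show an unmethylated transcript. The median peak width of the lists was 249 to 250 bases. Of 10 fixed muscle fibre markers, among them Acta1, Ckm and Myh4, 0 had a peak in any list, so the labelled tissue cannot be checked from its defining markers here. Of 30 markers of other cell types, 16 had a peak and 5 had one in all 4 lists, namely Pdgfra, Cdh5, Kdr, Pdgfrb and Cd163. Which cells the Fat and Ahnak transcripts came from was not tested.

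Ahnak carried a long row of peaks in each list. Innervated replicates 1 and 2 held 25 and 21 Ahnak peaks and denervated replicates 1 and 2 held 25 and 19, so that the gene ranked first or second by number of peaks in each list. Of its 90 peaks, 85 were unspliced, and all of these lay within 16093 bases of chromosome 19, from 9002097 to 9018189 on the plus strand, which start 12813 bases after the transcript start. Peaks covered 51.7% and 48.3% of that stretch in the innervated lists and 50.8% and 76.8% in the denervated lists. The list of denervated replicate 2 thus stood above the other 3, which lay close together. Peaks of at least 1 list covered 79.6% of the stretch.

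Of the 16 Ahnak regions, 13 were called in all 4 lists, beside 34.6% of the regions of all genes. The number was 10 with overlap of at least 50% of both peaks. It was 7 with equal numbers of peaks per list, 7 with peaks within 100 bases joined, and 0 with the 50% of peaks with either the smallest or the largest scores. The remaining 3 all involved denervated replicate 2. A spliced peak from 8989384 to 8999716, which began 100 bases after the transcript start, and a region from 9015540 to 9015740 were called in denervated replicate 2 alone, and a region from 9012492 to 9012791 in that list and in innervated replicate 1. The shared regions had a median of 650 covered bases and a range of 251 to 2350, near the median of 593 for shared regions of all genes, which reached 8633. The widest spanned 9015840 to 9018189. It held 1 peak of 2350 bases in denervated replicate 2, but 3, 4 and 5 peaks in innervated replicates 1 and 2 and denervated replicate 1. The next widest, from 9013091 to 9015040, was again 1 peak in denervated replicate 2 and 3, 2 and 3 peaks in the other lists. Neighbouring shared regions were separated by a median of 224 bases, with a range of 49 to 1098. Without denervated replicate 2, Ahnak had 17 regions called in all remaining lists.

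A count of bases does not depend on how peaks are linked. Ahnak peaks covered 13509 bases in at least 1 list, and 6320 of them, or 46.8%, in all 4 lists, beside 33.1% over all genes. These common bases formed 26 stretches with a median length of 201 bases, the longest of 850. A total of 2943 bases was covered in denervated replicate 2 alone, against 150, 0 and 100 in innervated replicates 1 and 2 and denervated replicate 1 alone. Bases covered in both denervated lists and neither innervated list came to 599, and those of the opposite kind to 50. These were 4.43% and 0.370% of Ahnak's covered bases, beside 4.11% and 4.22% over all genes. The denervated-only bases lay in 9 stretches of 49 to 100 bases, with a median of 50, inside regions that all 4 lists held. No whole Ahnak region was specific to a group in the main setting. With overlap of at least 50% of both peaks 1 region was innervated only, and without denervated replicate 1, 2 were denervated only. The shares over all regions in these settings are not given here. For bases the direction turned without denervated replicate 2, with 699 (6.62%) denervated only and 749 (7.09%) innervated only. The shares over all genes were 12.2% and 9.59% under the same omission. With innervated replicate 1, innervated replicate 2 or denervated replicate 1 left out instead, 1203, 1149 or 3542 bases were denervated only, which is 9.01%, 8.51% or 26.4% beside 7.27%, 10.5% or 14.6% over all genes. Innervated-only bases then came to 50, 200 or 100, which is 0.374%, 1.48% or 0.746% beside 14.5%, 10.1% or 9.14%.

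**Figure D1:**
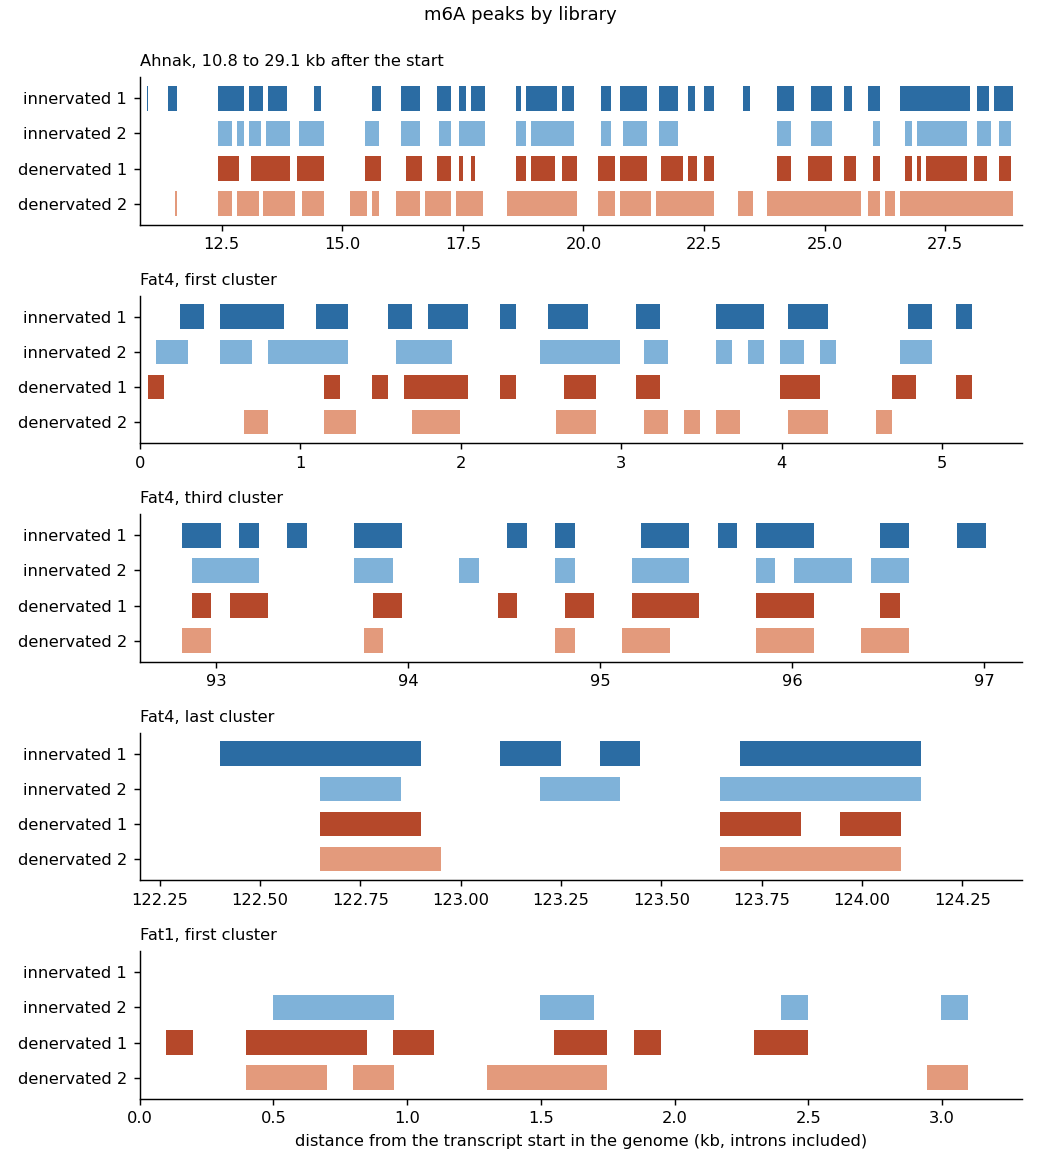
Peaks of Ahnak, Fat4 and Fat1 in the 4 lists; each bar is a block of a peak, the horizontal axis is the distance from the transcript start in kb of genome with introns included, and rows are libraries. Ahnak's first spliced peak and 2 smaller clusters of Fat4 and the last of Fat1 lie outside the windows. Denervated replicate 2 has fewer, wider bars on Ahnak, and innervated replicate 1 has none on Fat1.

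Fat4 had the most regions of any gene, in separate groups along its 127326-base span on chromosome 3. The innervated lists held 29 and 23 Fat4 peaks, and the denervated lists 23 and 18. Both innervated lists held at least as many as either denervated list, with a tie at 23. The 27 regions fell into 5 clusters when regions at most 2000 bases apart were grouped, a limit set after the data were seen. The first cluster ran from 38886990 to 38892126, starting 50 bases after the transcript start, with 11 regions of which 6 were called in all 4 lists. The second was a single region from 38956916 to 38957465. The third ran from 38979760 to 38983949, with 11 regions, 6 of them called in all 4 lists. The fourth was a single spliced region from 38996088 to 38999105, and the last ran from 39009340 to 39011085, close to the end of the gene, with 3 regions of which 2 were called in all 4 lists.

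Peaks of Fat4 were narrow, with median widths of 151 and 200 bases in the innervated lists and 151 and 225 in the denervated lists. Its shared regions covered a median of 425 bases, and its other regions a median of 150. The widest shared region, from 38887439 to 38888286, covered 848 bases, of which 101 were common to all 4 lists. Neighbouring shared regions within a cluster were separated by a median of 298 bases, with a range of 49 to 797, and their centres by a median of 798 bases. Fat4 shared fewer bases between lists than Ahnak. Of 8552 bases covered in at least 1 list, 1761 or 20.6% were covered in all 4 lists, and 36.1% in 1 list alone, beside 33.1% and 30.9% over all genes. In 1 of the 14 shared regions, from 38891527 to 38891877, no base was common to all 4 lists, since linked peaks need not overlap each other. With overlap of at least 50% of both peaks, 8 Fat4 regions were called in all 4 lists in place of 14.

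Fat4 peaks covered fewer bases in both denervated lists than in both innervated lists. They covered 5960 and 5207 bases in innervated replicates 1 and 2 and 4160 and 3857 bases in denervated replicates 1 and 2. The groups did not overlap, and the denervated mean of 4008.5 ± 214 (SD, n = 2) was 71.8% of the innervated mean of 5583.5 ± 532 (SD, n = 2). Of the 2924 genes called in all 4 lists, 17.2% had both innervated lists above both denervated lists and 15.6% had the reverse, so groups that stand apart are common. A ratio lower than that of Fat4 was found in 9.47% of these genes, whose median was 100%. In bulk muscle, fewer cells of a type and less RNA per cell cannot be told apart, and here neither can be told apart from less methylation.

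The lower coverage of Fat4 in denervated muscle was seen in each of its larger clusters. In the first cluster, peaks covered 2454 and 2554 bases in the innervated lists and 1655 bases in each denervated list. In the third they covered 1806 and 1654 against 1453 and 1152 bases, and in the last 1200 and 899 against 601 and 750 bases. In these 3 clusters the groups did not overlap. The clusters are parts of the same gene in the same libraries, so they are not separate repeats of the result. The second cluster went the other way in part, with 350 and 0 bases against 451 and 300, so that innervated replicate 2 had no peak there.

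Of the 51 regions, 2 were innervated only, both of Fat4. That is 3.92%, near the 4.2% of all regions, and 0 were denervated only, beside 3.67%. One was the spliced region from 38996088 to 38999105, which covered 150 bases. The other, from 39010038 to 39010387, covered 350 bases between the 2 shared regions of the last cluster, with 2 peaks in innervated replicate 1 and 1 in innervated replicate 2. Of single bases, 1000 were covered in both innervated lists and neither denervated list, in 15 stretches of 34 to 149 bases, and 1 base in the reverse case. These were 11.7% and 0.0117% of Fat4's covered bases, beside 4.22% and 4.11% over all genes. The 15 stretches had a median length of 50 bases. In the 4 lists, 68.7% to 71.1% of peak widths lay within 1 base of a multiple of 50. A stretch of that length can thus be a single step of a peak edge. Leaving out a list loosens the definition for all genes. With innervated replicate 1, innervated replicate 2, denervated replicate 1 or denervated replicate 2 left out, 1995, 2049, 1351 or 1551 Fat4 bases were innervated only, which is 26.6%, 27.1%, 17.1% or 19.02% beside 14.5%, 10.1%, 9.14% or 9.59% over all genes. Denervated-only bases were 499, 250, 400 or 649, which is 6.65%, 3.31%, 5.06% or 7.96% beside 7.27%, 10.5%, 14.6% or 12.2%. In the same order, innervated-only regions of Fat4 numbered 4, 7, 4 and 3, and denervated-only regions 1, 0, 2 and 0. The shares over all regions under these omissions are not given here, so these region counts are not read as a trait of Fat4.

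**Figure D2:**
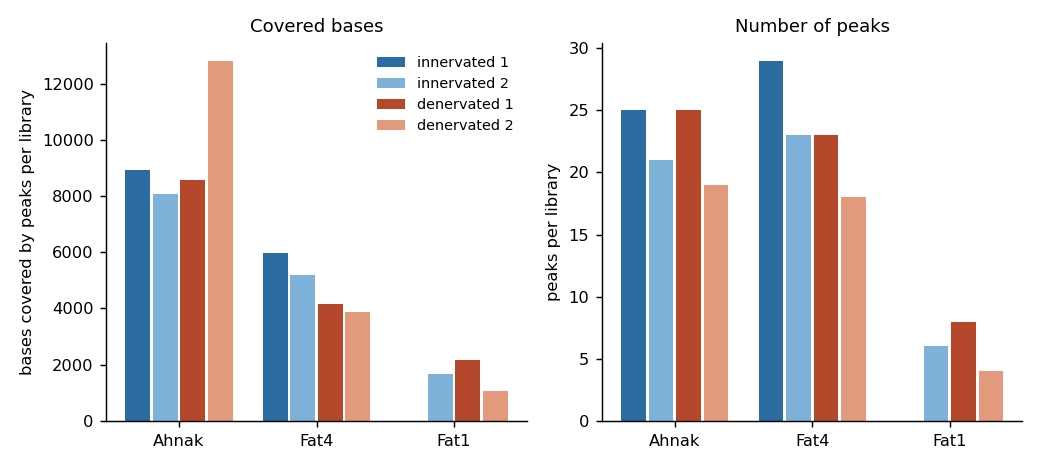
Bases covered by peaks (left) and number of peaks (right) for Ahnak, Fat4 and Fat1, with 1 bar per library and no error bars. Denervated replicate 2 covers 12812 bases of Ahnak with 19 peaks, and both denervated bars of Fat4 lie below both innervated bars in covered bases.

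Fat1 was called in 3 lists. Its peaks numbered 0 and 6 in the innervated and 8 and 4 in the denervated lists, replicate 1 first, and covered 0 and 1653 bases and 2157 and 1052 bases. The groups overlapped, since the value of innervated replicate 2 lay between those of the denervated lists. Its 8 regions lay on chromosome 8 on the plus strand in 2 clusters. The first, from 44950308 to 44953303, began 100 bases after the transcript start and held 6 regions. The second, from 45044172 to 45051558, held 2 regions, called in innervated replicate 2 and denervated replicate 1 and not in denervated replicate 2. Its spliced region from 45045147 to 45051558 was the widest of the gene, with 800 covered bases. Only the regions from 44950607 to 44951306 and from 44951506 to 44951955 were called in all 3 lists that held the gene.

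No Fat1 region was specific to a group. Of its 2655 covered bases, 150 (5.65%) were denervated only, in stretches of 100 and 50 bases, and 0 innervated only, beside 4.11% and 4.22% over all genes. Without innervated replicate 1, denervated-only bases stayed at 150 (5.65%), beside 7.27% over all genes. They were 554 (20.9%), 400 (19.5%) and 752 (31.3%) without innervated replicate 2, denervated replicate 1 and denervated replicate 2. The shares over all genes were then 10.5%, 14.6% and 12.2%. Innervated replicate 1 held no Fat1 peak. Without innervated replicate 2, each base common to the denervated lists thus counts as denervated only. A gene missing from innervated replicate 1 alone was not rare, with 310 of 5987 genes (5.18%). Among the 89 genes with at least 8 regions, 2 lacked that list alone, of which Fat1 is 1. The limit of 8 is Fat1's own number of regions, so no conclusion is drawn from this count. Of these 89 genes, 65 had a peak in all 4 lists. Fat1 gained 2 denervated-only regions without innervated replicate 2, where the same holds for regions as for bases. It gained 2 without denervated replicate 2, and 2 with equal numbers of peaks per list, a setting that dropped the peaks with the largest scores. The shares over all regions in these settings are not given here, so these counts are not read as a trait of Fat1.

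Fat2, Fat3 and Ahnak2 had no peak in any list. Fat3 is known from neurons and Fat2 from cerebellum and epithelia of the mouse. No peak stood under an older symbol of any of the 6 genes, and within the gene spans of all 6 genes no peak of another name lay on either strand. The spans of the genes without peaks were 86897 bases on chromosome 11 for Fat2, 592493 bases on chromosome 9 for Fat3 and 30462 bases on chromosome 12 for Ahnak2, all on the minus strand. Whether these transcripts were present in the input RNA was not analysed here.

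**Figure D3:**
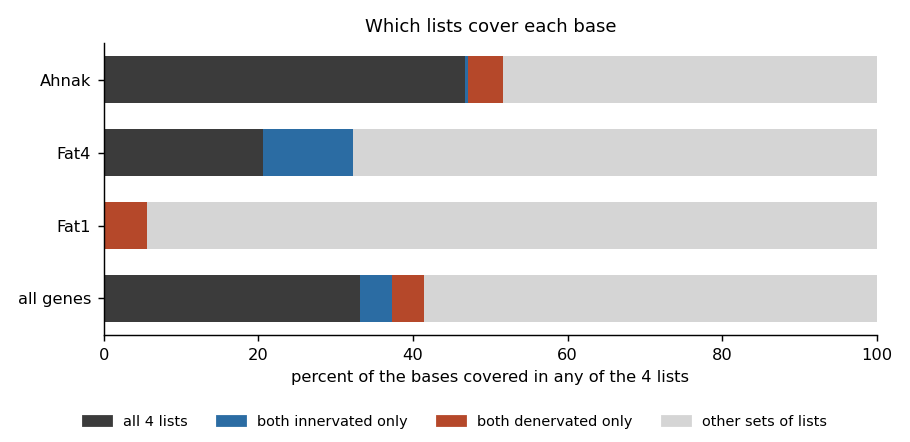
Share of the bases covered in at least 1 list that were covered in all 4 lists, in both innervated lists only, in both denervated lists only or in other sets of lists, in percent, for Ahnak, Fat4, Fat1 and all genes. Ahnak has 46.8% in all 4 lists and Fat4 20.6%, with 11.7% of Fat4 innervated only.

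Summed over the genes, no difference between denervated and innervated muscle could pass a test here, since with 2 against 2 libraries the smallest possible p is 0.333. The sum also joins Ahnak and Fat4, whose covered bases differed in opposite directions, by 2198 and −1575 bases. Peaks numbered 52 ± 2.83 (SD, n = 2) in innervated and 48.5 ± 10.6 (SD, n = 2) in denervated lists, a difference of −3.5 (two-sided exact permutation p = 1). Covered bases were 14880 and 14926 in the innervated lists and 14887 and 17721 in the denervated lists. The means were 14903 ± 32.5 and 16304 ± 2004 (SD, n = 2, exact permutation p = 0.667). The excess came from denervated replicate 2, and without that list the difference was −16 bases. Ahnak covered 8920 and 8066 bases in the innervated lists and 8570 and 12812 bases in the denervated lists, with groups that overlapped. That list had the highest coverage of Ahnak and the lowest of Fat4. Median peak widths were 225.5 bases in both innervated lists and 201 and 300 bases in denervated replicates 1 and 2 (exact permutation p = 1).

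Pairs of libraries differed in how much they shared, by gene. For Ahnak the Jaccard index, the share of covered bases common to a pair of lists, was highest between innervated replicate 2 and denervated replicate 1, at 0.739. The innervated pair stood at 0.721 and the denervated pair at 0.607, and the 3 pairs with denervated replicate 2 were lowest, from 0.598 to 0.639. For Fat4 the pairs within groups stood at 0.488 and 0.456, and those between groups at 0.376 to 0.463, so that 1 pair between groups exceeded the denervated pair. For Fat1 the index was 0.584 between innervated replicate 2 and denervated replicate 1 and 0.209 between the denervated lists. Over all genes it ran from 0.528 to 0.579.

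The authors' scores placed these genes mostly among the peaks with large scores. The score is the authors' own value per peak, and what it measures is not given in the sources used here. Expressed as a percentile within each list that is 100 at the smallest score, the Ahnak peaks had medians of 32.8 and 17.7 in the innervated lists and 10.6 and 58.1 in the denervated lists. All Ahnak peaks of denervated replicate 2 stood between 57.6 and 61.4, above the highest of the other lists, 40.4. The Fat4 medians were 21.9 and 31.7 in the innervated lists and 22.8 and 46.7 in the denervated lists, and those of Fat1 were 6.18, 20.1 and 7.18 in innervated replicate 2 and denervated replicates 1 and 2. Neighbouring peaks shared scores. Within each Fat4 and Fat1 cluster, all peaks of a list had 1 score, so the 12 peaks of innervated replicate 1 in the first Fat4 cluster cannot be ranked. The 25, 21, 25 and 19 Ahnak peaks of the lists, in the order above, had 8, 11, 7 and 4 distinct scores, in runs of up to 7 neighbouring peaks.

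**Figure D4:**
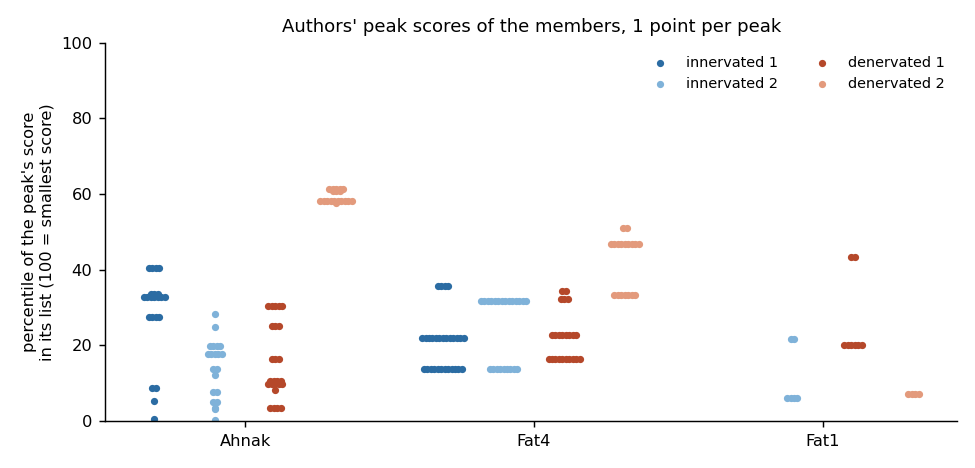
Percentile of each peak's score within its list (vertical axis, 100 at the smallest score) for Ahnak, Fat4 and Fat1, with 1 point per peak and colours by library. Points at the same height share a score or nearly so, and the Ahnak peaks of denervated replicate 2 lie between 57.6 and 61.4, apart from those of the other 3 lists.

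Few other genes had such rows of shared peaks. Genes had a median of 2 regions. Fat4 and Ahnak, with 14 and 13 regions called in all 4 lists, ranked first and second of 5987 genes, and the 8 genes next in order had 8 or 7. Those with 8 were Cep350, a centrosomal protein, with 8 of 14 regions, Zfp292, a zinc finger protein, with 8 of 10, and Kmt2c, a histone methyltransferase, with 8 of 9. Tied at 7 were 5 genes, namely Igsf10, of the immunoglobulin superfamily, with 7 of 15, Kmt2a, a histone methyltransferase, with 7 of 15, Vcan, a proteoglycan of the extracellular matrix, with 7 of 13, Kmt2d, a histone methyltransferase, with 7 of 11, and Bod1l with 7 of 10. Likeness here is the number of regions called in all 4 lists. Peaks of these 8 genes covered 4002 to 9401 bases in at least 1 list, against 13509 for Ahnak and 8552 for Fat4. Kmt2d, with 9401, thus covered more than Fat4. Among the 36 genes with at least 10 regions, 36.0% of regions were called in all 4 lists, against 81.2% for Ahnak and 51.9% for Fat4, which are among the 36. Fat4 and Ahnak were chosen for their many shared regions, so their ranks and shares are a description. The shares of the 8 other genes ran from 46.7% for Igsf10 and Kmt2a to 88.9% for Kmt2c, with Zfp292 at 80%. The first peak lay within 1000 bases after the transcript start in 25.9% of the 3595 genes with a single start in the promoter table. That was the case for Fat4 in all 4 lists, at 249, 100, 50 and 648 bases, and for Fat1 in the 3 lists that held it, at 499, 100 and 399 bases. For Ahnak it was so in denervated replicate 2 alone. The starts used for Fat4 and Fat1 lie inside their gene spans, so their distances are not from the first base of the span.

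**Figure D5:**
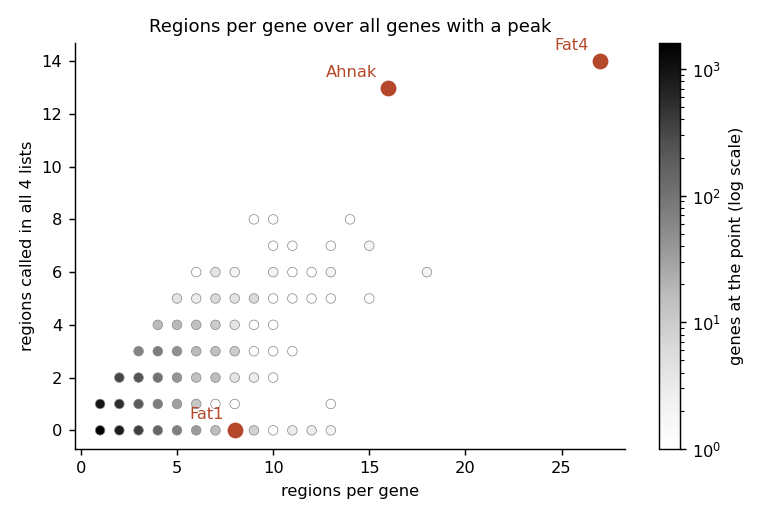
Number of regions per gene (horizontal axis) against the number called in all 4 lists (vertical axis) for all genes with a peak, shaded by the number of genes at each point on a log scale. Fat4 and Ahnak stand at 14 and 13 shared regions, above the next value of 8, and Fat1 has 8 regions of which 0 are shared by all 4 lists.

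Of 37 listed genes that act with Fat cadherins or in the Hippo pathway, 18 had a peak and 19 had none. In all 4 lists were 10, which is 55.6% of those with a peak, near the 48.8% of all genes with a peak. They had a median of 1 region called in all 4 lists, against 0 over all genes with a peak. Dchs1, the Dachsous cadherin that binds Fat4, had 5 of 10 regions in all 4 lists, and Lats2, a kinase of the Hippo pathway, 5 of 7. Vgll3, a cofactor of Tead transcription factors, had 3 of 3, and Celsr2, a cadherin of planar polarity, 2 of 7, a number of shared regions that Sav1, Tead1 and Amotl2 also had. Enah, an actin regulator of the Ena/VASP family that binds Fat1, was denervated only, with 2 of 4 regions in both denervated lists, and 0 genes were innervated only, beside 3.42% and 3.14% of all genes. Enah lost its call with the 50% of peaks with the largest scores. Fjx1, a Golgi kinase that modifies Fat cadherins in its fly form, was like Fat1 missing from innervated replicate 1 alone. So were 5.18% of all genes with a peak, among them Ank3, Lum and Cdh15 of the other gene and marker lists. Fjx1 and these genes were picked out after their values were seen.

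Of 10 listed partners of Ahnak, 3 had a peak and 0 of these were called in all 4 lists, beside 48.8% of all genes with a peak. Their median of 0 shared regions equals that over all genes with a peak. The calcium channel subunits Cacnb1 and Cacnb2 were each called in 3 lists, without denervated replicate 2, and Prx, which resembles Ahnak in part and belongs to Schwann cells, in innervated replicate 2 alone. S100a10, Anxa2 and Dysf had no peak. These 6 genes lay outside the naming rule.

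Of 24 other giant scaffolds and linkers of the cytoskeleton, 13 had a peak and 5 were called in all 4 lists, which is 38.5% of those with a peak, beside 48.8% of all genes with a peak. Their median of 0 shared regions equals that over all genes with a peak. The anchoring protein Akap9 had 5 of 6 regions in all 4 lists, the cytolinker Plec 3 of 4, the anchoring protein Akap12 3 of 8 and the nuclear envelope protein Syne1 2 of 3. Macf1, which links actin and microtubules, was denervated only, with 10 of its 12 regions in both denervated lists. It kept that call with either 50% of the scores and with equal numbers of peaks per list. That made 1 of the 13 denervated only and 0 innervated only, beside 3.42% and 3.14% of all genes with a peak. Dst, Akap13, Sptbn1 and Lrp1, which are 4 of the 13, were called in denervated replicate 2 alone. Of all genes with a peak, 4.28% were. Dst, the closest relative of Macf1, had 12 regions, all in that list alone, and Akap13 had 8. These calls rest on 1 library, so the 4 of 13 are not read as a trait of scaffolds or of denervation. The muscle giants Ttn and Neb had no peak. Genes of this paragraph called in a single list or without a peak were picked out after their values were seen.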

How the data were processed

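The authors deposited 4 peak lists, 1 per m6A-captured library, each set against an input library. Per the file headers they give position, blocks, gene name and a score, the authors' own value from 0 to 0.023. STAR 2.4.2a, the annotation tool ChIPseeker and build mm10 are named in the submitters' processing notes. The sources used here do not give the peak caller. Peaks were linked into regions by at least 1 shared base of blocks on the same strand with Python 3.11.15. Of 2000 simulated regions, 2000 got their true class. The simulated regions lay far apart, with at most 1 peak of each list. Rows of close peaks linked in chains, as in Ahnak and Fat4, were not simulated. Regions, genes or bases counted as denervated only when found in each denervated list and in no innervated one, and innervated only in the reverse case. Positions are 1-based. Exact two-sided permutation tests compared group means, with numpy 2.4.6. Gene spans and starts came from RefSeq, GRCm38.p6. The members, gene lists and tests were chosen with earlier results of these data known. Named genes were the 6 members, the 5 others with most regions in all 4 lists, and from each list the group-specific genes and the 4 with most such regions. Ties were broken by more regions in all and then by name, and the genes tied with the last of each are named too, as an addition made after seeing the data. The counts of bases by list and the settings for Fat4 alone were added after seeing the data. Alternatives were other overlaps, score limits, equal list sizes, gene spans and each list left out.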

Additional observations from a re-analysis of the deposited data

How the results depend on the processing

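The 27 regions called in all 4 lists became 16 with peaks within 100 bases joined and 18 with overlap of at least 50% of both peaks. They ran from 27 to 32 with 1 library left out. They became 0 with the 50% of peaks with the smallest scores and 12 with the 50% with the largest scores. By these score limits Ahnak had 0 such regions on either side, since its peaks of denervated replicate 2 stood on the other side from those of the other lists. The 0 denervated-only regions became 2 when lists were cut to equal numbers of peaks and ran from 1 to 4 with 1 library left out. The 2 innervated-only regions became 0 with the smallest scores and ran from 3 to 7. Leaving out a list loosens both definitions for all genes, and the shares over all regions in these settings are not given here. The difference in peaks per library, denervated minus innervated, was −3.5. It turned to 10.5 with the smallest scores, was 0 with equal numbers and ran from −11 to 4. The difference in covered bases, 1401, turned to −5380 with the largest scores and ran from −16 to 2818, and that in median width, 25 bases, turned to −37.25 with the largest scores and ran from −24.5 to 74.5. No width could be had with the smallest scores, where the innervated lists held no such peak. The Fat4 difference of covered bases turned to 375 with the smallest scores, which left 750 bases in denervated replicate 2 and 0 in the other lists. It kept its direction in the 7 other settings tried, those without each library included. Most of these could not test the direction. With equal numbers and with gene spans the Fat4 values did not change. Leaving out 1 list could not turn the difference, since both innervated values lay above both denervated values. With the replicate number as a block, the differences stayed at −3.5 peaks, 1401 bases and 25 bases by construction, with exact sign-flip p values of 1, 0.5 and 1, where 0.5 is the smallest possible. The labels do not say that numbers pair the samples, and deviations of same-numbered libraries from their group means had a correlation of 0.00769 over genes. Depth is unknown and limits every count of peaks.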
